A study of Rattus norvegicus with 24 samples.

Results

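Neurons and endocrine cells make peptide hormones as larger precursors, and the genes described here cut, trim, amidate and store them. The set has 9 genes: the prohormone convertases Pcsk1 and Pcsk2, the trimming enzyme Cpe, the amidating enzyme Pam, the chaperone Scg5, the chromogranins Chga and Chgb, and the secretogranins Scg2 and Scg3. A gene was found by its symbol in the annotation of the array. This gave 10 probe sets for 8 of the 9 genes, out of 14217 genes with a named probe set. No probe set carried the symbol Pcsk1, which was therefore not analysed here.

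Messenger RNA was measured on 24 Affymetrix rat arrays, each hybridised with RNA pooled from 5 male rats aged 10 to 13 weeks (10 to 12 weeks for 1 pool). Spontaneously hypertensive rats (SHR), an inbred strain with high blood pressure, were sampled in 4 places. The pituitary's neurointermediate lobe (NIL) has 5 arrays, the hypothalamic paraventricular nucleus (PVN) has 5 and its neighbour the supraoptic nucleus (SON) has 4, while the rostral ventrolateral medulla (RVLM) of the brainstem has 5. Wistar-Kyoto rats (WKY), their control strain with normal blood pressure, gave 5 RVLM arrays. No treatment is given in the labels, and a pool shows nothing of the spread between single rats.

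In the regulated secretory pathway a precursor is cleaved at pairs of basic residues by the convertases while its granule matures. Carboxypeptidase E removes the basic residues left at the new ends, and peptidylglycine alpha-amidating monooxygenase turns a terminal glycine into the amide that vasopressin, oxytocin and melanocyte-stimulating hormone carry. Granins pack the granule core. The PVN and SON hold the cell bodies that make vasopressin and oxytocin, and their nerve endings lie in the NIL, next to intermediate lobe melanotrophs. Neurons of the RVLM drive sympathetic outflow.

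All values below are probe set intensities in array units, which are linear, and differences are on the log2 scale after each array was shifted to a common median. A gene was called when its limma test had a Benjamini-Hochberg adjusted p under 0.05 over all probe sets kept. Each of the 8 genes passed the filter on dim probe sets, and the 2 further probe sets of Pam did not. Array medians were 35.9 to 46.5. Precision is limited by how many arrays each group has, and a level in a tissue sample cannot separate fewer cells of a type from less RNA per cell.

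The tissue labels were set against marker genes. Pomc, which melanotrophs express, had 611 to 1243 in NIL and 1.28 to 16.2 in all other groups. The summed intensity of Avp and Oxt was 2386 to 3390 in NIL, 7331 to 10518 in PVN and 8776 to 10405 in SON. In the RVLM it was 20.1 to 32.5 for SHR and 13.3 to 39.4 for WKY. The NIL arrays also carried anterior pituitary markers, with sums over 9 genes of 11939, 16830, 5920, 5829 and 3015 in arrays 1 to 5. The third PVN array by its label (PVN array 3) stood apart from its group, and the tests and counts that involve the PVN, the similar profiles and the ranges between structures were also computed without it.

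Cyclic AMP, acting through the response element TGACGTCA, is known to control several granin genes in endocrine cells, so the letters upstream of the genes were read. RefSeq promoter windows of the rat assembly GRCr8, from 250 bases before to 50 bases after the start that the table uses for a gene, were found for 7 of the 8 genes. Chga had none. That start was the outer end of the annotated gene for Pcsk2, Cpe, Scg3 and Chgb. It lay 86 bases inside the gene for Scg5 and 342 bases inside it for Scg2. For Pam it lay 124556 bases inside the gene (chromosome 9, 105445812 to 105719287), so that window is not the sequence before the outermost annotated start and is not shown. The windows of 3 are shown: Scg2, which has the whole element, Chgb, which has no match, and Pcsk2, the enzyme with the widest range between structures. Capitals mark TGACG or its reverse complement CGTCA, and overlapping matches run together.
Scg2, chr9:88256817-88257116, minus strand: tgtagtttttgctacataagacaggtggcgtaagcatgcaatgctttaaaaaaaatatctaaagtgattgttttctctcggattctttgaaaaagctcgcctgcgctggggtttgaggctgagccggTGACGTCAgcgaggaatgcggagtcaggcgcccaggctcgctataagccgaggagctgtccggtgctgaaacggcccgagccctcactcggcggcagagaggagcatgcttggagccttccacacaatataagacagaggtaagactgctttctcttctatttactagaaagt
Chgb, chr3:140496462-140496761, plus strand: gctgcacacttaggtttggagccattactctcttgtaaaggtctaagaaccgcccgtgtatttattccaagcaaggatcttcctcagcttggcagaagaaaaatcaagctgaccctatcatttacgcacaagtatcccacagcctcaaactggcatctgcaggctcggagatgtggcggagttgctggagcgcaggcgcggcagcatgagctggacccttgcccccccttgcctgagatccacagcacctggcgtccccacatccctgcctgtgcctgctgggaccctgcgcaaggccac
Pcsk2, chr3:151333688-151333987, plus strand: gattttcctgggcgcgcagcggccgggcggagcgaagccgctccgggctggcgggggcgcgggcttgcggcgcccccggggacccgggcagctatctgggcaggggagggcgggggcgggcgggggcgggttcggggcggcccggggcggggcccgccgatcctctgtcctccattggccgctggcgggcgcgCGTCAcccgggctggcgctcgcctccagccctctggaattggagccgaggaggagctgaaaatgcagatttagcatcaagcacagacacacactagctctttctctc

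The 8-base element was found in the window of Scg2 only, starting 123 bases upstream of the start that the table uses, and in 1.83% of 33469 rat windows of the same length. Its 5-base part TGACG, searched on both strands and also counted inside the whole element, was present in 6 of 7 windows (Pcsk2, Cpe, Pam, Scg2, Scg3 and Scg5), against 21.2% of all windows. The count includes the window of Pam, which lies far inside the annotated gene. The Scg2 element and the Scg5 matches also lie within their annotated genes, and the CGTCA match of Scg5 lies downstream of the start used. These matches are letters in a sequence and not measured binding sites.

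Pcsk2, the convertase that cleaves proopiomelanocortin to melanocyte-stimulating hormone and also cleaves hypothalamic precursors, had by far its highest level in the NIL. The 5 NIL arrays gave 484, 464, 696, 632 and 581. The PVN arrays gave 81.0, 74.1, 53.0, 78.5 and 92.4, the SON arrays 49.5, 64.0, 64.4 and 72.4, and the SHR RVLM arrays 68.0, 68.2, 53.6, 61.7 and 76.4. Every NIL array lay above every array of the other structures, whose ranges overlapped one another. Mean intensity was 572 ± 98.2 in NIL (SD, n = 5), against 75.8 ± 14.4 in PVN (n = 5), 62.6 ± 9.55 in SON (n = 4) and 65.6 ± 8.49 in SHR RVLM (n = 5). In the limma fit over all SHR arrays, Pcsk2 was higher in NIL than in PVN by 2.88 on the log2 scale (SE 0.148, Benjamini-Hochberg adjusted p = 2.9e-13), a fold of 7.37. The difference was 3.18 from SON (SE 0.157, limma adjusted p = 2.22e-13) and 3.03 from RVLM (SE 0.148, limma adjusted p = 7.01e-14). Among 10596 genes tested it ranked 38 from the top in NIL minus SON and 62 from the top in NIL minus PVN. The PVN, SON and RVLM followed with no call between any pair of them, at limma adjusted p of 0.221 for PVN minus SON, 0.451 for PVN minus RVLM and 0.457 for SON minus RVLM.

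Scg5, which encodes 7B2, the chaperone that pro-PC2 needs for its maturation, did not share the range of Pcsk2. Its group means were 2596 ± 164 in NIL, 2059 ± 145 in PVN, 2216 ± 49.0 in SON and 2276 ± 242 in SHR RVLM (SD, n = 5, 5, 4 and 5). In intensity, the NIL arrays, 2474, 2476, 2851, 2509 and 2672, lay above the PVN arrays, 2264, 2144, 1910, 1950 and 2029. After the shift to a common median, PVN array 1 (11.33 on the log2 scale) lay above every NIL array but array 3 (11.46). Those 2 groups gave the only called pair, NIL over PVN by 0.29 (SE 0.115, limma adjusted p = 0.0347). That call is not stable: the adjusted p was 0.0532 to 0.101 when any of NIL arrays 1, 3 and 5 or PVN arrays 3, 4 and 5 was left out. With values as deposited or with quantile normalization, Scg5 was also called higher in NIL than in SON and RVLM. Its range between structure means, 0.29, was smaller than that of all but 7.90% of 10888 genes, whose median range was 0.79 (6.75% of genes had a smaller range without PVN array 3).

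Cpe, the carboxypeptidase that trims cleaved precursors, was bright in every sample. The NIL arrays gave 3581, 3956, 4313, 3750 and 4241, the PVN arrays 3045, 3055, 3446, 3099 and 2841, the SON arrays 4064, 3239, 3820 and 3662, and the SHR RVLM arrays 4131, 3668, 3879, 3541 and 4375. In intensity, the 5 PVN arrays lay below every NIL and every RVLM array. The highest PVN array lay above the lowest SON array, and NIL, SON and RVLM overlapped. After the shift to a common median, PVN array 3 (11.80 on the log2 scale) lay above NIL array 4 (11.73) and SHR RVLM array 2 (11.78). Cpe was higher in NIL than in PVN by 0.32 (SE 0.113, limma adjusted p = 0.0216) and fell in PVN against RVLM by 0.39 (SE 0.113, limma adjusted p = 0.00769). Both calls depended on the scaling: with quantile normalization the values were 0.08 (adjusted p = 0.212) and 0.04 (adjusted p = 0.610), and the sign of the PVN and RVLM difference turned. The NIL and PVN call was also lost without NIL array 3 or 5, or PVN array 4 or 5 (adjusted p from 0.0503 to 0.0680). On each array Cpe had 44.8% to 77.8% of the intensity of the brightest probe set, and whether differences at this level are compressed was not tested.

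Pam, the amidating enzyme, ordered the structures differently from Pcsk2. The NIL arrays gave 1288, 1145, 1426, 1490 and 1405 and the PVN arrays 1347, 1392, 1541, 1415 and 1529. The SON arrays gave 2085, 1725, 2149 and 2340, and the SHR RVLM arrays 502, 489, 514, 522 and 457. SON lay above all other arrays and RVLM below all, while NIL and PVN overlapped. Group means were 1351 ± 136 in NIL, 1445 ± 85.9 in PVN, 2075 ± 257 in SON and 497 ± 25.2 in SHR RVLM (SD, n = 5, 5, 4 and 5). Pam was higher in SON than in RVLM by 1.98 (SE 0.104, limma adjusted p = 4.24e-12), a fold of 3.93, and in PVN than in RVLM by 1.49 (SE 0.0979, limma adjusted p = 1.3e-10). It was also higher in NIL than in RVLM by 1.35 (SE 0.0979, limma adjusted p = 6.12e-11). Pam was lower in NIL than in SON by −0.63 (SE 0.104, limma adjusted p = 2.94e-05) and lower in PVN than in SON by −0.49 (limma adjusted p = 0.00343). NIL and PVN did not differ beyond their spread, with a difference of −0.14 (95% interval −0.35 to 0.06, limma adjusted p = 0.227). The 2 further Pam probe sets reached at most 11.9 and 13.3 on any array, under the filter, and give no check.

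**Figure D1:**
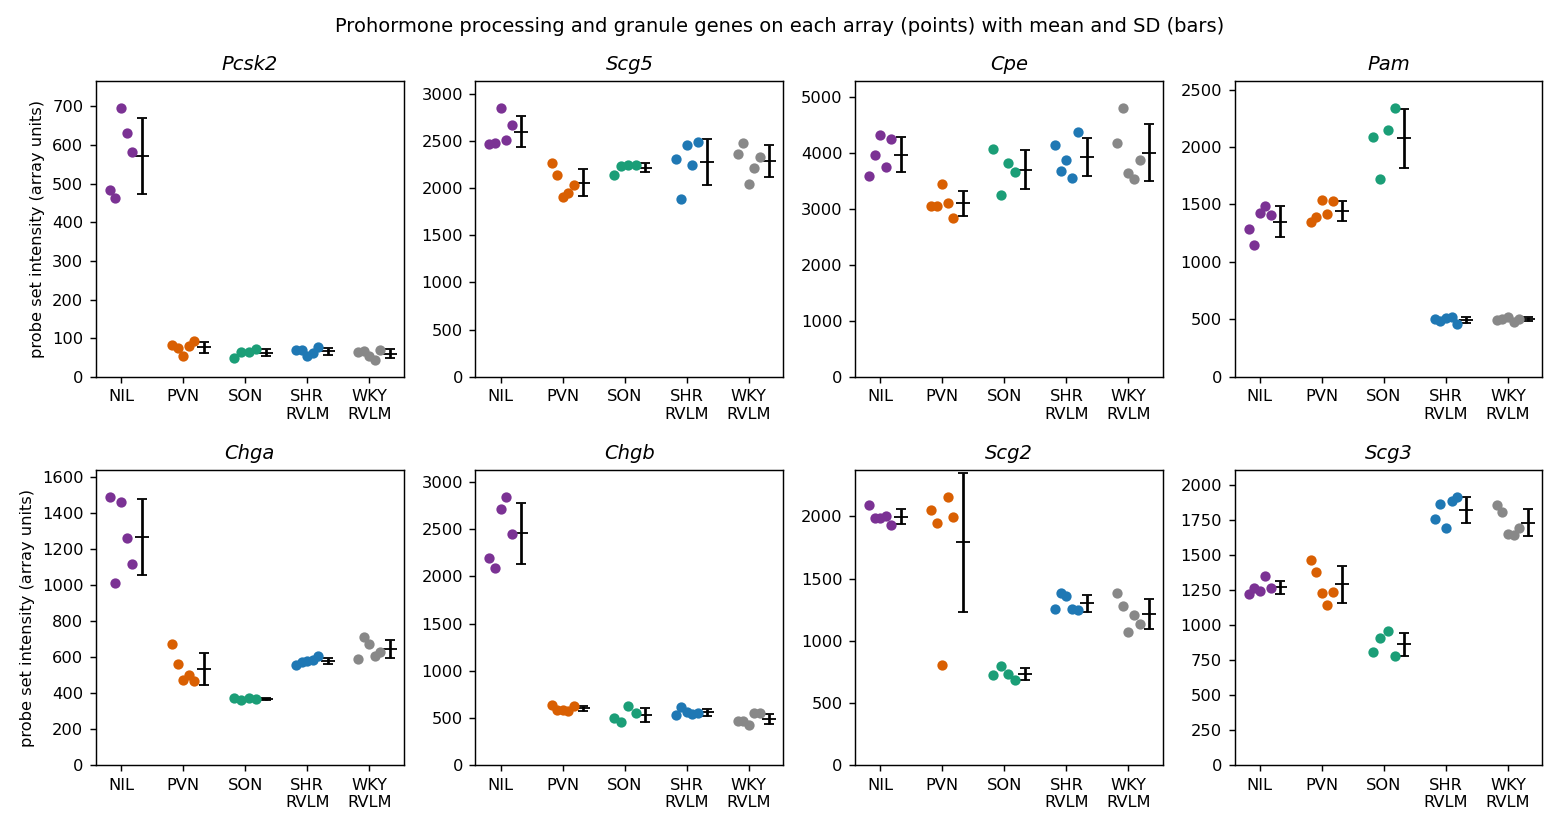
Probe set intensity in linear array units (vertical axis, from 0) of 8 processing and granule genes on each array (points), with the mean and SD of each group (bars). Pcsk2, Chga and Chgb were highest in NIL, where Pcsk2 averaged 572 against 75.8 or less elsewhere, and Pam was highest in SON.

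The chromogranins Chga and Chgb, acidic proteins of the granule core, also had their highest levels in the NIL. For Chgb the NIL arrays gave 2190, 2088, 2711, 2844 and 2448, and the PVN arrays 639, 587, 590, 579 and 631. The SON arrays gave 500, 459, 628 and 556 and the SHR RVLM arrays 531, 616, 562, 539 and 555. No array outside the NIL came near the lowest NIL array, and the other structures overlapped. Chgb was higher in NIL than in PVN by 1.97 (SE 0.106, limma adjusted p = 6.65e-13), than in SON by 2.18 (SE 0.112, limma adjusted p = 4.52e-13) and than in RVLM by 2.03 (SE 0.106, limma adjusted p = 2.26e-13). These are folds of 3.92, 4.54 and 4.09. PVN, RVLM and SON followed in that order with no call between any pair of them (limma adjusted p from 0.217 to 0.669).

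For Chga the NIL arrays gave 1493, 1010, 1463, 1262 and 1121. The PVN arrays gave 676, 562, 473, 501 and 467, the SON arrays 375, 363, 374 and 366, and the SHR RVLM arrays 559, 577, 579, 588 and 606. NIL lay above all other arrays and SON below all, while PVN and RVLM overlapped. Chga was higher in NIL than in PVN by 1.20 (SE 0.139, limma adjusted p = 1.73e-07), than in SON by 1.75 (SE 0.147, limma adjusted p = 1.47e-09) and than in RVLM by 1.02 (SE 0.139, limma adjusted p = 1.18e-06). It was higher in PVN than in SON by 0.55 (SE 0.147, limma adjusted p = 0.0149) and lower in SON than in RVLM by −0.73 (SE 0.147, limma adjusted p = 0.00035). The PVN and SON call was lost when only those 2 groups were in the fit (adjusted p = 0.0561). PVN and RVLM were not called apart (−0.18, limma adjusted p = 0.299), except without PVN array 1, where the difference was −0.32 (adjusted p = 0.0306).

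Scg2, the precursor of secretoneurin and a granule component of neurons and endocrine cells, separated the PVN from the SON. The NIL arrays gave 2088, 1985, 1983, 2000 and 1926, and the PVN arrays 2047, 1949, 802, 2157 and 1994. The SON arrays gave 722, 800, 734 and 684, and the SHR RVLM arrays 1257, 1380, 1363, 1256 and 1247. PVN array 3 lay just above the highest SON array and far below the other 4 PVN arrays, which overlapped with NIL. Scg2 was higher in PVN than in SON by 1.23 (SE 0.186, limma adjusted p = 0.000205) and by 1.48 without PVN array 3 (adjusted p = 1.56e-10). It ranked 113 from the top of 10596 genes in that comparison. Scg2 was higher in NIL than in SON by 1.43 (SE 0.186, limma adjusted p = 1.29e-06), higher in NIL than in RVLM by 0.53 (SE 0.175, limma adjusted p = 0.0113) and lower in SON than in RVLM by −0.90 (SE 0.186, limma adjusted p = 0.000464). PVN and RVLM were not called apart in the main fit with all arrays (0.33, SE 0.175, limma adjusted p = 0.135), while without PVN array 3 the difference was 0.58 (SE 0.0952, adjusted p = 2.39e-05). With all arrays kept, they were called apart with quantile normalization (0.62, limma adjusted p = 0.0149) and with arrayWeights (0.48, limma adjusted p = 0.000417). NIL and PVN differed by 0.20 (95% interval −0.16 to 0.56, limma adjusted p = 0.347) and by −0.05 without PVN array 3 (adjusted p = 0.654).

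PVN array 3 differed from its group in more than Scg2. Its summed intensity of 5 genes of meninges and connective tissue was 7946, against 382 to 621 on the other PVN arrays, and SON had 6335 to 9390. The corticotropin-releasing hormone gene Crh had 38.1 on it and 393 to 514 on the other PVN arrays, and the somatostatin gene Sst had 143 against 2335 to 3031. The part of these differences in the Scg2 values was not tested. Pcsk2 was also lowest of the PVN on this array, at 53.0, while Pam and Cpe were highest there and Chga, Chgb and Scg3 lay within the range of the other 4. Scg5 was lowest there in intensity, at 1910. After the shift to a common median it was not, at 10.95 on the log2 scale against 10.74 on PVN array 4.

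**Figure D2:**
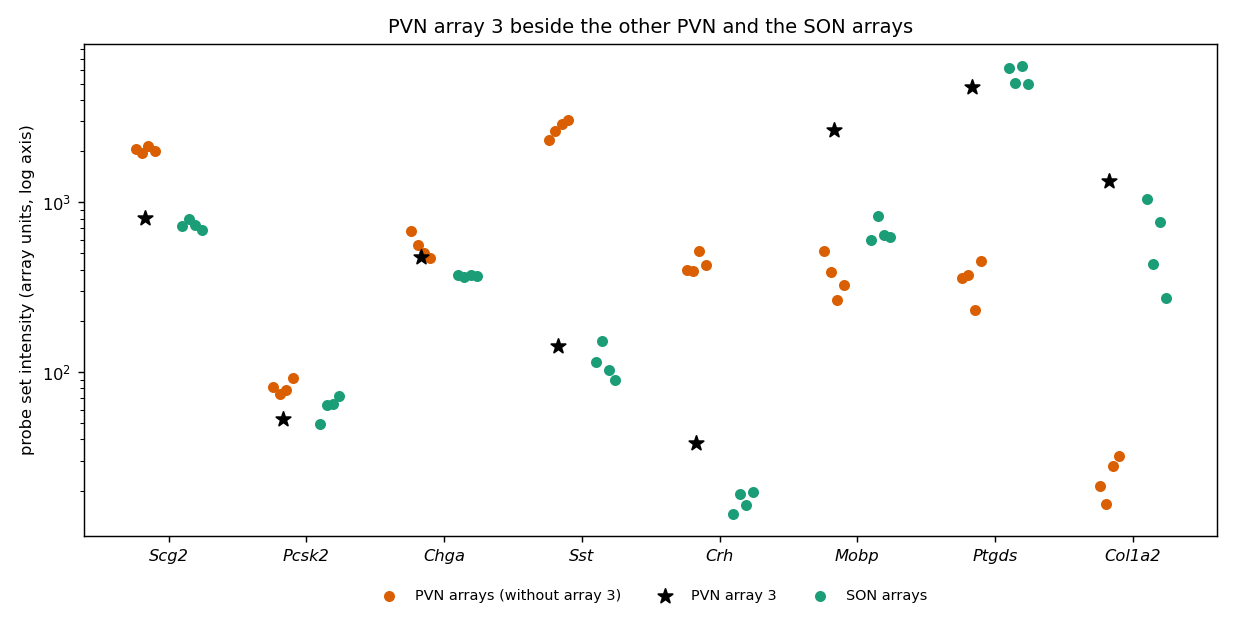
Probe set intensity (log axis) of Scg2, Pcsk2, Chga and 5 other genes on PVN array 3 (star), the other 4 PVN arrays and the 4 SON arrays (points). For Scg2, Sst and Crh the star lies far below the other PVN arrays, and for Mobp (oligodendrocytes), Ptgds and Col1a2 (meninges and connective tissue) it lies above them.

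Scg3, which binds cholesterol-rich granule membrane and other granins, had its highest level in the medulla. The NIL arrays gave 1223, 1266, 1245, 1351 and 1270 and the PVN arrays 1468, 1384, 1232, 1145 and 1238. The SON arrays gave 808, 909, 960 and 784, and the SHR RVLM arrays 1761, 1868, 1697, 1886 and 1920. RVLM lay above all other arrays and SON below all, with NIL and PVN overlapping between them. Scg3 was lower in SON than in RVLM by −1.16 (SE 0.117, limma adjusted p = 6.67e-08), lower in NIL than in RVLM by −0.61 (SE 0.11, limma adjusted p = 4.42e-05) and lower in PVN than in RVLM by −0.55 (SE 0.11, limma adjusted p = 0.000321). It was higher in NIL than in SON by 0.55 (limma adjusted p = 0.000515) and in PVN than in SON by 0.61 (limma adjusted p = 0.00162). NIL and PVN differed by −0.06 (95% interval −0.29 to 0.17, limma adjusted p = 0.661). The summed intensity of 8 pan-neuronal markers, a list with no member of the set, was also highest in SHR RVLM. It was lowest in NIL, while Scg3 was lowest in SON. NIL had 2434 to 2711, PVN had 6391 to 7552, SON had 6525 to 7050 and SHR RVLM had 17323 to 21234, and the part of neuronal content in the Scg3 differences was not tested.

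Counted per comparison, 5 of 8 genes rose in NIL against PVN and none fell, where 57.1% of all genes tested were called, 29.8% higher and 27.4% lower. Against SON, 5 rose in NIL and 1 fell (background 51.2% called, 26.5% higher and 24.7% lower), and against RVLM 5 rose and 1 fell (67.8% called, 37.6% higher and 30.2% lower). The median difference of the 8 genes was 0.31 in NIL minus PVN, 0.99 in NIL minus SON and 0.77 in NIL minus RVLM, while that of all genes was 0.03, 0.03 and 0.10. The median in NIL minus PVN lies between Scg5 (0.29) and Cpe (0.32), whose calls in this comparison are not stable. Between PVN and SON, 3 rose in PVN and 1 fell, where 16.1% of genes were called, 9.02% higher and 7.12% lower. Between PVN and RVLM, 1 rose in PVN and 2 fell (45.6% called, 26.3% higher and 19.3% lower), and between SON and RVLM, 1 rose in SON and 3 fell (45.7% called, 25.4% higher and 20.3% lower). The medians of these comparisons were 0.25, −0.06 and −0.16, beside 0.01, 0.07 and 0.07 for all genes. These 6 comparisons share arrays, so their values are given side by side only. Without PVN array 3, 4 of the 8 rose and 0 fell in NIL against PVN, 3 rose and 1 fell in PVN against SON, and 2 rose and 2 fell in PVN against RVLM.

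**Figure D3:**
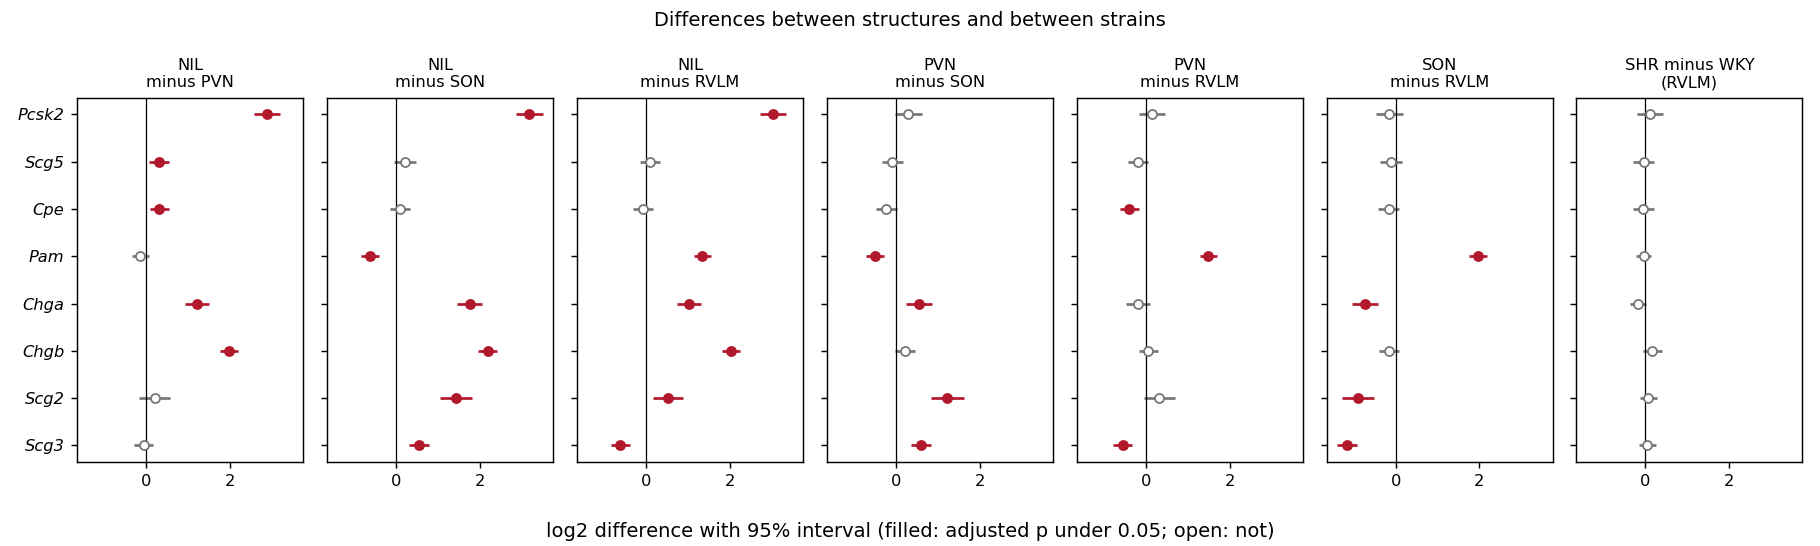
Log2 difference (horizontal axis) with its 95% interval for each of the 8 genes in each comparison, filled where the adjusted p was under 0.05. Differences from NIL reach 3.18 for Pcsk2, and none of the 8 is filled in SHR minus WKY.

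The 2 NIL arrays with the highest anterior pituitary sums, arrays 1 and 2, had the lowest Pcsk2 (484 and 464) and the lowest Chgb (2190 and 2088) of the NIL. Chga was not ordered this way, with 1493 and 1010 on these arrays. When those arrays were left out, a choice made after seeing the data, Pcsk2 was higher in NIL by 3.03 against PVN, 3.32 against SON and 3.17 against RVLM, and Chgb by 2.08, 2.29 and 2.14. Since the arrays left out held the lowest Pcsk2 and Chgb of the NIL, their removal could only raise these differences. The counts became 4 of 8 higher against PVN, 5 higher and 1 lower against SON, and 4 higher and 1 lower against RVLM. The 2 calls lost were Scg5 against PVN (adjusted p = 0.0734) and Scg2 against RVLM (adjusted p = 0.0551). All 3 remaining NIL arrays still held anterior pituitary sums far above the 124 to 304 found in SHR brain arrays, and the part of anterior pituitary tissue in the NIL levels was not tested.

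Between the strains, none of the 8 genes was called in the RVLM. The limma adjusted p ran from 0.586 to 0.943 over the 8 genes, and 1.41% of all genes were called, 0.548% higher and 0.865% lower. At an unadjusted p under 0.05, 0 of the 8 passed, against 953 of 10400 genes. Chga had the largest difference. Its SHR arrays gave 559, 577, 579, 588 and 606 and its WKY arrays 591, 715, 675, 610 and 632, a difference of −0.17 (95% interval −0.37 to 0.02, limma adjusted p = 0.586). Chgb was 531, 616, 562, 539 and 555 in SHR and 474, 465, 428, 550 and 550 in WKY, a difference of 0.16 (95% interval −0.06 to 0.38, limma adjusted p = 0.701). For Pam the interval was −0.22 to 0.14, for Scg2 −0.13 to 0.27, for Scg3 −0.15 to 0.24, for Scg5 −0.29 to 0.21, for Cpe −0.31 to 0.20 and for Pcsk2 −0.20 to 0.42. In each of the 8 genes the ranges of SHR and WKY arrays overlapped, while 3.55% of all genes had groups that did not overlap. A missing call does not show that the strains have the same level.

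Other genes of the pathway were taken from lists. Of 17 further processing enzymes and partners tested, 7 rose and 3 fell in NIL against PVN, 5 rose and 3 fell against SON, and 8 rose and 6 fell against RVLM. Over all genes, 29.8% rose and 27.4% fell in NIL against PVN, 26.5% rose and 24.7% fell against SON, and 37.6% rose and 30.2% fell against RVLM. Qpct, the glutaminyl cyclase that forms pyroglutamate ends, fell in NIL to 28.9 ± 5.98, against 388 ± 64.2 in PVN, 316 ± 20.8 in SON and 311 ± 35.6 in SHR RVLM (SD, n = 5, 5, 4 and 5). Its differences were −3.79, −3.49 and −3.54 (limma adjusted p = 6.14e-15, 9.86e-14 and 1.11e-14). The NIL levels of Qpct, 20.9 to 37.5, lay under the NIL array medians of 41.0 to 45.1. The carboxypeptidases Cpd and Cpm had their highest levels in the RVLM. Cpd averaged 187 ± 30.3 in NIL, 98.0 ± 83.9 in PVN (60.6 ± 7.27 without PVN array 3, n = 4), 74.2 ± 9.37 in SON and 440 ± 85.8 in SHR RVLM, and was lower in NIL than in RVLM by −1.32 (limma adjusted p = 0.000525). Cpm averaged 31.0 ± 8.52 in NIL, 28.8 ± 19.4 in PVN (20.2 ± 1.54 without PVN array 3, n = 4), 23.6 ± 8.40 in SON and 133 ± 25.3 in SHR RVLM, and was lower in NIL than in RVLM by −2.22 (limma adjusted p = 2.12e-06). Its means in NIL, PVN and SON lay under the median intensity of the arrays. Cpz, a carboxypeptidase of the extracellular matrix, was higher in SON than in RVLM by 1.94 (limma adjusted p = 0.00313), and on PVN array 3 it had 77.4 against 6.13 to 21.2 on the other PVN arrays. Its SHR RVLM values, 9.17 to 35.8, lay under the medians of those arrays.

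Atp7a, which loads copper for enzymes of the secretory pathway such as Pam, and Cyb561, which supplies the electrons that Pam uses in granules, were added after their values were seen. Atp7a averaged 239 ± 31.3 in NIL, 78.3 ± 16.7 in PVN, 109 ± 14.8 in SON and 64.6 ± 5.54 in SHR RVLM, and was higher in NIL than in RVLM by 1.79 (limma adjusted p = 2.25e-10). Cyb561 averaged 614 ± 34.2 in NIL, 393 ± 82.4 in PVN, 278 ± 12.8 in SON and 234 ± 20.1 in SHR RVLM, and was higher in NIL than in RVLM by 1.30 (limma adjusted p = 2.01e-08). Neither had its highest level in SON, where Pam peaked.

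Pcsk1n, also added after its values were seen, encodes proSAAS, the inhibitor of the convertase that Pcsk1 encodes. It averaged 1496 ± 134 in NIL, 1624 ± 220 in PVN, 1387 ± 165 in SON and 1037 ± 70.6 in SHR RVLM. It was higher in each of NIL, PVN and SON than in RVLM by 0.44, 0.59 and 0.34 (limma adjusted p = 0.00388, 0.000536 and 0.0419). The call between SON and RVLM was lost with no filter (adjusted p = 0.0657), with no intensity trend (0.0574) and with the replicate block (0.0559). It was also lost without SON array 1 or 3 or RVLM array 1, 2 or 4 (adjusted p from 0.0649 to 0.153).

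Among 10 granule cargo and membrane genes tested of 13 listed, 3 rose and 5 fell in NIL against PVN, 1 rose and 5 fell against SON, and 5 rose and 4 fell against RVLM, beside 57.1%, 51.2% and 67.8% of all genes called in these comparisons. Vgf, a neuroendocrine secretory protein that is cut into active peptides, fell in NIL where Chga and Chgb rose. The NIL arrays gave 15.2, 23.0, 18.6, 19.5 and 22.9, while PVN had 450 to 742, SON had 482 to 618 and SHR RVLM had 544 to 722. The NIL levels lay under the median intensity of the arrays, and the differences were −4.88, −4.79 and −5.06 (limma adjusted p = 9.02e-17, 4.12e-16 and 2.81e-17). Nucb2, the nesfatin precursor, averaged 431 ± 22.4 in NIL, 189 ± 47.9 in PVN, 208 ± 19.1 in SON and 61.2 ± 4.73 in SHR RVLM. Ptprn, the granule membrane protein IA-2, had 573 ± 60.1 in NIL, 661 ± 81.0 in PVN, 888 ± 80.9 in SON and 293 ± 34.6 in SHR RVLM, so that it was highest in SON as Pam was. Ptprn counts among the genes that fell in NIL against PVN (−0.24, limma adjusted p = 0.0441), a call that is not stable. The adjusted p was 0.0529 with the replicate block, 0.0574 with no filter, 0.0619 with no intensity trend, 0.0786 with only those groups in the fit, 0.0864 with values as deposited and 0.167 with quantile normalization. It was also lost without any of NIL arrays 1 to 4, PVN arrays 1, 2 and 5, SON array 4 or RVLM arrays 3 and 4 (adjusted p from 0.0507 to 0.129), and with the 3 NIL arrays of lowest anterior pituitary sum (0.253). Its difference of −0.40 between PVN and SON (limma adjusted p = 0.0147) was not called with only those groups in the fit (0.0635) or without SON array 3 (0.0611). Slc18a2, the vesicular monoamine transporter, had 24.9 ± 2.33 in NIL, 66.2 ± 22.9 in PVN, 45.5 ± 5.86 in SON and 105 ± 11.1 in SHR RVLM, its highest level. Resp18, a regulated endocrine protein added after its values were seen, averaged 3821 ± 403 in NIL, 3000 ± 227 in PVN, 3701 ± 234 in SON and 1614 ± 190 in SHR RVLM. It was higher than in RVLM by 1.15 in NIL, 0.85 in PVN and 1.12 in SON (limma adjusted p = 3.03e-09, 1.26e-06 and 5.9e-08), and NIL and SON were not called apart (0.03, limma adjusted p = 0.850).

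Of 15 granule formation and release genes tested of 18 listed, 9 rose and 5 fell in NIL against PVN, 8 rose and 4 fell against SON, and 11 rose and 3 fell against RVLM, where 57.1%, 51.2% and 67.8% of all genes were called. The filter used the mean over all SHR arrays, so a gene dim elsewhere could pass it through its NIL level and then count as higher there. In the fit of the RVLM arrays alone, 12 genes of this list were tested. Rab27a, the small GTPase of granule docking, gave 750, 742, 862, 797 and 721 in NIL, while PVN had 38.7 to 62.8, SON had 47.3 to 50.8 and SHR RVLM had 22.9 to 43.8. It was higher in NIL by 4.02, 3.95 and 4.42 (limma adjusted p = 4.23e-15, 2.01e-14 and 5.33e-16). Sytl4, the Rab27a partner granuphilin, averaged 243 ± 23.5 in NIL, 22.4 ± 11.5 in PVN, 12.2 ± 4.48 in SON and 19.1 ± 2.85 in SHR RVLM. Its means outside the NIL lay under the median intensity of the arrays. For both genes every NIL array lay above every array of the other structures. Cadps2, a priming factor for granule release, had 190 ± 16.1 in NIL, 381 ± 71.2 in PVN, 577 ± 36.7 in SON and 60.4 ± 15.1 in SHR RVLM. Its order, SON over PVN over NIL over RVLM, was called between each pair. The call between PVN and SON (−0.59, limma adjusted p = 0.0245) was lost with only those groups in the fit (0.0504), and when PVN array 4, PVN array 5 or any SON array but the second was left out (adjusted p from 0.0559 to 0.0704). Rab3d, another granule GTPase, averaged 117 ± 20.8 in NIL, 40.4 ± 11.5 in PVN, 72.2 ± 13.2 in SON and 16.4 ± 12.7 in SHR RVLM, and was higher in NIL than in RVLM by 3.20 (limma adjusted p = 1.63e-06). Its RVLM mean lay under the SHR RVLM array medians of 37.8 to 42.8, and the difference was 2.75 to 3.57 with single arrays left out.

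**Figure D4:**
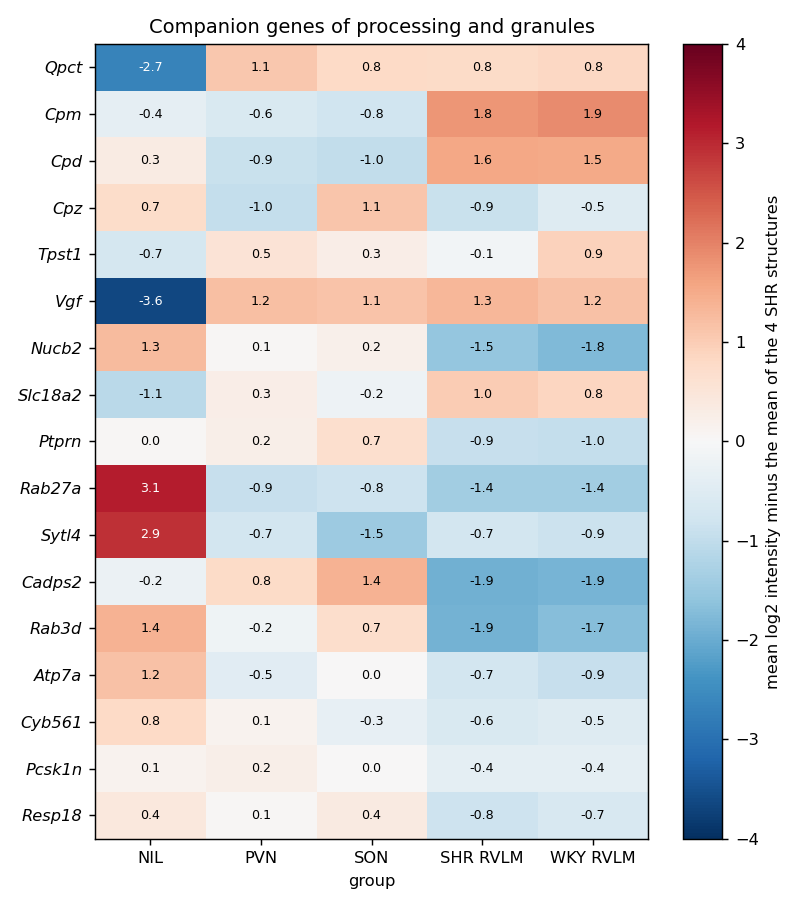
Mean log2 intensity of other processing and granule genes in each group, minus the mean of the 4 SHR structures (colour and printed value). Vgf and Qpct are lowest in NIL, Rab27a and Sytl4 highest there, and Tpst1 differs between the RVLM of SHR and WKY.

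Of 18 peptide precursor genes tested of 20 listed, 1 rose and 14 fell in NIL against PVN, 1 rose and 13 fell against SON, and 4 rose and 11 fell against RVLM, while 29.8%, 26.5% and 37.6% of all genes rose and 27.4%, 24.7% and 30.2% fell. Pomc, far higher in NIL than in the other groups, did not pass the filter over all structures and was not tested. The counts of genes that rose in NIL therefore leave it out. Crh lay near the filter and passed it in 10 of 19 fits with single arrays left out. Oxt averaged 1568 ± 240 in NIL, 4118 ± 667 in PVN, 4513 ± 343 in SON and 8.86 ± 5.06 in SHR RVLM, and Avp 1226 ± 175, 4453 ± 522, 5056 ± 495 and 17.3 ± 3.45 in the same groups. Crh averaged 4.08 ± 5.20 in NIL, 354 ± 183 in PVN, 17.4 ± 2.35 in SON and 47.7 ± 3.43 in SHR RVLM, and Sst 21.9 ± 9.24, 2200 ± 1180, 115 ± 27.2 and 520 ± 46 in the same groups (SD, n = 5, 5, 4 and 5).

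Without PVN array 3, the counts of genes that rose and fell in NIL against PVN were 7 and 4 for processing enzymes, 3 and 5 for granule cargo, 9 and 4 for granule release and 1 and 14 for precursors. With the 3 NIL arrays of lowest anterior pituitary sum they were 5 and 4, 3 and 4, 7 and 4, and 1 and 14 in the same order, with 14 release genes tested.

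Across these lists, 1 of 53 genes tested was called between the strains, beside 1.41% of all genes. This was Tpst1. It encodes tyrosylprotein sulfotransferase, the enzyme that sulfates tyrosines of secreted proteins and peptides in the Golgi. The SHR RVLM arrays gave 136, 183, 117, 147 and 114 and the WKY RVLM arrays 353, 209, 302, 304 and 256. Every SHR array lay below every WKY array, and Tpst1 was lower in SHR by −1.06 (SE 0.137, limma adjusted p = 0.000201).

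The genes whose profile over the 5 group means was most like that of a member were found among 10565 genes by the root mean square difference of centred log2 means. For Pcsk2 they were Sphkap (0.088), Ap1m2 (0.18) and Pon3 (0.19), and for Chgb RT1-S3 (0.075), F11r (0.089) and Greb1l (0.09). For Chga they were Tmem50b (0.078), Tob1 (0.11) and Mmel1 (0.11), and for Pam Glce (0.071), Fmo1 (0.14) and Kcnh1 (0.14). Scg2 was followed by Galc (0.083), Rybp (0.14) and Fam222a (0.14), and Scg3 by Pias2 (0.065), Lrrc4c (0.068) and Plekhm3 (0.069). Without PVN array 3, a choice made after seeing the data, 10 of these 18 genes stayed among the 3 most similar and 8 were replaced. Sphkap (0.15), Glce (0.076), Galc (0.092) and Tmem50b (0.069) remained first for Pcsk2, Pam, Scg2 and Chga. For Scg3 the same 3 genes were found, with Lrrc4c (0.056) first, while for Chgb Fshb (0.081) took the place of RT1-S3. Fshb belongs to the anterior pituitary marker list, whose sums varied widely between the NIL arrays, and the part of this in the likeness was not tested. The range of Cpe and Scg5 was too small for such a search.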

How the data were processed

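The authors deposited a linear intensity per probe set. Per the submitters' processing notes GCOS 1.2 was used; its settings were not given in the sources used here. A 2% trimmed mean of this intensity was 99.6 to 99.8 on all 24 arrays. Per the labels, each array held RNA of 5 pooled rats. Pools counted as independent, and whether several structures came from the same rats is not stated.

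Values were taken to log2 without a pseudocount and arrays were shifted to a common median. The 57 control probe sets were left out, and 18625 of 31042 probe sets had a mean over the arrays of the fit above the 40th percentile. A gene bright in a single structure could pass this filter. limma 3.58.1 (R 4.3.3; lmFit and eBayes with trend) was fitted on all 19 SHR arrays for structures and on the 10 RVLM arrays for strain, and p-values were adjusted by Benjamini-Hochberg over all kept probe sets. The scripts were tested on simulated data. A gene was its brightest probe set with 1 symbol: 20826 probe sets had 1 symbol, 436 had several. The members, lists and rules were chosen with earlier results of these data known. Named were all members, from each other list the 4 called genes with the widest range of structure means and each strain call, and per member the 3 most similar profiles. Replicate numbers came from titles, with an unnumbered title as 1. Alternatives were other scaling, no filter, a pseudocount of 16, no trend, arrayWeights, the replicate block, other arrays in the fit and each array left out.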

Additional observations from a re-analysis of the deposited data

Results flagged for a closer look

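In groups of 4 or 5 arrays, an array was set apart when its gap to the nearest other array, divided by the range of the group, passed Dixon's 95% critical value. This happened in 13 of 125 groups of members and named companion genes (10.4%), and chance gives about 1 in 20. Of the 40 groups of the 8 members, 2 had such an array. Scg2 had 802 on PVN array 3, against 1949 to 2157 on the other PVN arrays. Scg5 had 2143 on SON array 1, against 2235 to 2247, a small gap in a narrow group.

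PVN array 3 gave 6 of the 11 among the other genes. Cpm had 63.5 there (18.1 to 21.8 on the other PVN arrays), Cpd 248 (53.8 to 70.6), Cpz 77.4 (6.13 to 21.2), Tpst1 495 (157 to 198), Crh 38.1 (393 to 514) and Sst 143 (2335 to 3031). The remaining ones were Ptprn on WKY RVLM array 2 (257, others 289 to 300.2), Rab27a on SON array 3 (47.3, others 50.4 to 50.8), Rab3d on WKY RVLM array 4 (4.44, others 16.4 to 19.2), Crh on NIL array 4 (13.3, others 0.471 to 2.57) and Crh on WKY RVLM array 2 (119, others 31.9 to 50.9).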

How the results depend on the processing

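Of 1520 values of the 8 members under the alternatives, 1487 kept their side of the threshold, 16 lost a call, 16 gained one and 1 reversed. A change of sign counted as reversed only where the main or the alternative value was called. Uncalled values that changed sign are therefore among the 1487, such as Scg2 in NIL minus PVN (0.20, and −0.05 without PVN array 3). Of 3827 values of the other named genes, 3712 kept their side of the threshold, 88 lost a call and 27 gained one. The reversed value was Cpe in PVN minus RVLM, 0.035 with quantile normalization; the cause was not tested. Of 373 counts, 10 moved by over 1.5 times. With no filter 3 members were called in NIL minus PVN, against 5, and leaving out single arrays gave 3 to 5. In PVN minus RVLM, 5 members were called with arrayWeights, against 3, and 3 to 5 with single arrays left out. Called probe sets in PVN minus SON numbered 2740, but 4618 with arrayWeights, 1386 with only those 2 groups in the fit, and 1616 (without SON array 3) to 3905 (without PVN array 3) with single arrays left out. Deviations of same-numbered arrays correlated at -0.129 to 0.189, and those of differently numbered arrays at -0.262 to 0.231. Such correlations cannot show whether same-numbered pools came from the same rats. With the replicate block no member's count of calls changed, while among the other named genes Ptprn in NIL minus PVN (adjusted p = 0.0529), Rab27a in PVN minus RVLM (0.0526) and Pcsk1n in SON minus RVLM (0.0559) lost a call and Crh in SON minus RVLM (0.0419) gained one, and 245 probe sets were called between the strains, against 295. The planned Pcsk2 to Pcsk1 ratio was not run, since Pcsk1 has no named probe set. Dim genes, such as Vgf and Qpct in NIL or Rab3d and Cpz in SHR RVLM, have loosely determined folds.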
